A study of Bos taurus with 35 samples.

Results

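In Hanwoo cattle, 51 of 24596 annotated genes met a rule on median transcript levels. Their medians were at least 3 times higher in intramuscular fat and in muscle than in omental and subcutaneous fat. These members were chosen on their measured levels, as follows. In CPM (the reads of a gene relative to the reads on all genes, scaled between libraries by the trimmed mean of M values, TMM), the median in intramuscular fat (I) was at least 5 CPM. The medians in I and in muscle (M) were each at least 3 times those in omental fat (O) and in subcutaneous fat (S). The I median was not above the M median, and M was under 100 times O or S. The rise in I above the mean of the O and S medians was at least 10% of the rise in M. Of 11058 genes at 5 CPM or more in I, 588 were at least 3 times higher in I than in O and S, 215 of these were also 3 times higher in M, 173 of these were not above M, 65 met the 100-fold limit and 52 met the 10% limit. One of these was left out because the study had listed it by name, PPP1R3C, a glycogen-targeting subunit of protein phosphatase 1. Its medians were 36.1 CPM in O, 48.0 in S, 233 in I and 257 in M. The files give the other members only as Ensembl gene identifiers and do not pair them with symbols, so their functions and positions are not stated here.

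The RNA-seq libraries came from 9 Hanwoo animals, a Korean beef breed, all slaughtered at 30 months of age. The labels divide the animals into females, castrated males and males, 3 of each, while the methods of the study call the animals steers. Omental fat was taken beside the abomasum, and subcutaneous and intramuscular fat came from the rib section. Where the sequenced muscle was sampled is not stated in the methods of the study. There were 9 O, 9 S, 8 I and 8 M libraries, and by the labels tissues with the same replicate number came from the same animal, which for muscle replicate 4 is in doubt. The labels and the methods name no treatment, and the animals were fed under a program for high quality beef. The I libraries represent fat dissected out of a muscle.

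Intramuscular fat, seen as marbling in beef, is made of adipocytes lying between the bundles of muscle fibres. Muscle fibres contain large amounts of contractile and energy-metabolism transcripts, which makes dissected intramuscular fat a tissue in which RNA of both kinds of cell can be present. In such bulk samples, fewer cells of a type and less RNA per cell cannot be told apart.

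Reads assigned to genes numbered 4187267 to 6141691 per O library, 4913519 to 7184022 in S, 4363871 to 6505720 in I and 3726376 to 6612376 in M. Labels of the muscle libraries were checked with 5 genes that had at most 2 summed counts in every fat library labelled female and at least 697 in all other fat libraries. Muscle replicate 1, labelled female, had 1 such count, whereas the library labelled female muscle replicate 4 had 599, within the 425 to 901 of the other muscle libraries. In the spread of all genes around the tissue median (median absolute deviation of log2(CPM + 1)), I replicate 5 reached 0.826 and M replicate 8 reached 0.732, with M replicate 5 next at 0.523 and the other libraries at 0.472 or less. Values without one or more of these libraries are given beside the results.

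The members ranged widely in level. Their median CPM in I ran from 5.02 to 2012, with a median over the 51 genes of 63.5, and in M from 5.24 to 9975 with a median of 117. The corresponding medians over the members were 15.7 CPM in O and 16.0 in S. Relative to the higher of O and S, the I level was 3.02 to 36.9 times higher (median 3.99), and the M level was 3.55 to 72.6 times higher (median 8.73). These folds were selected on and carry no test. Reads of overlapping or antisense genes may be shared, because the strand setting of the counting is not given in the sources used here.

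The member with the highest level in I was ENSBTAG00000005353. In I it ranged from 1504 (replicate 3) through a median of 2012 to 3715 CPM (replicate 4). In M it ranged from 8037 through 9975 to 12584 CPM, in O from 35.6 through 137 to 256 and in S from 19.7 through 45.3 to 210. The 4 tissues did not overlap except O with S, and the lowest I library was several times above the highest O or S library.

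ENSBTAG00000021752 had nearly the same level in I and M. In I it ranged from 255 (replicate 7) through a median of 365 to 473 CPM (replicate 8), and in M from 212 (replicate 8) through 368 to 859 (replicate 5). Its level was 71.3 to 118 CPM in O and 56.4 to 110 in S. Of the 8 M libraries, 4 lay within the range of I, and neither tissue overlapped with O or S.

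**Figure D1:**
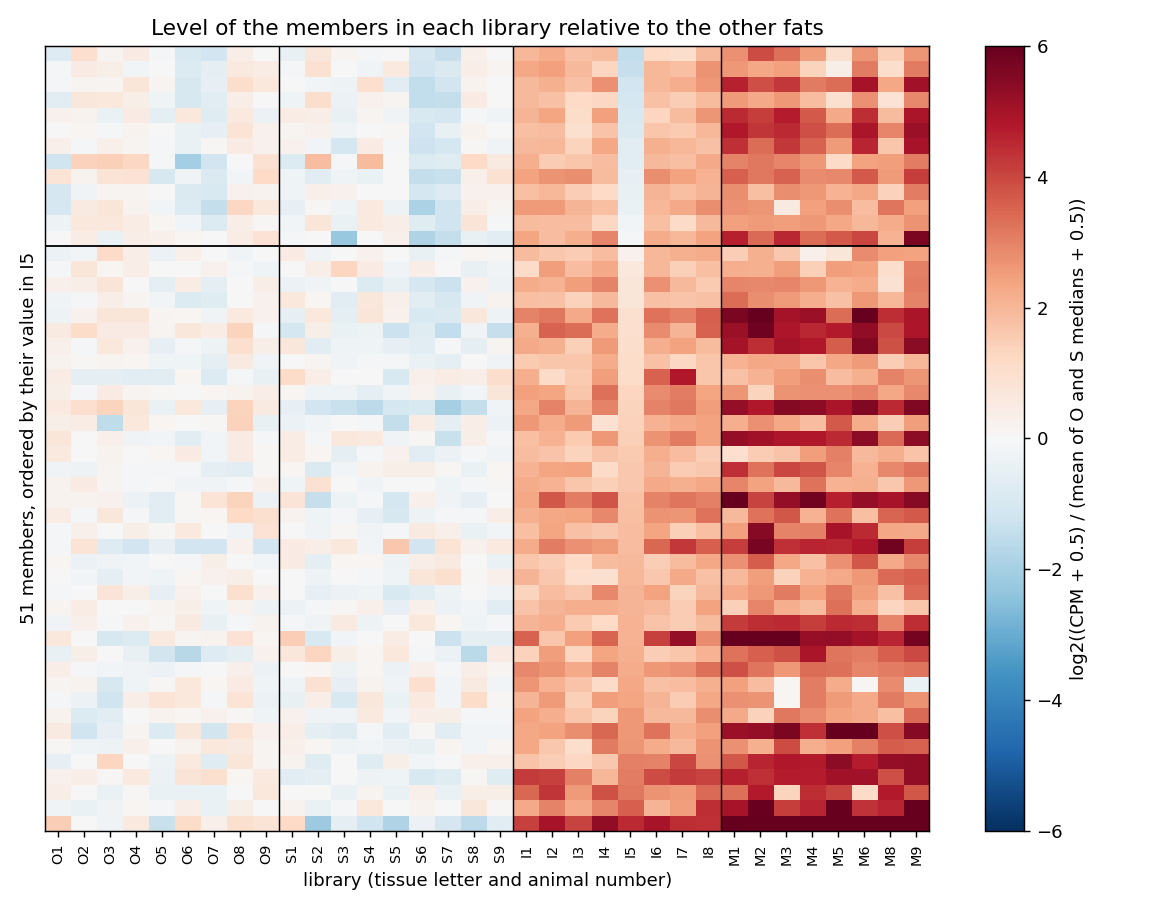
Level of each of the 51 members (rows, ordered by their value in I replicate 5) in each of the 34 libraries (columns, tissue letter and animal number), as the log2 ratio of CPM + 0.5 to the mean of the O and S medians + 0.5. Red is above and blue below the other fats, and 13 members above the horizontal line are at or below them in I replicate 5.

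Not every library followed the medians. Every I library was above every O and S library for 29 of the 51 members, which compares with 5.62% of the 11058 genes at 5 CPM or more in I. Without I replicate 5 this held for 45 members, against 8.28% of the same genes. Every M library was above every O and S library for 42 members (15.1% of all genes), and every M library was above every I library for 11 members (15.1% of all genes). Because these contrasts chose the members, nothing is read from the difference between the members and the background. The coefficient of variation within a tissue had a median over the members of 33.7% in O, 39.98% in S, 38.8% in I and 45.8% in M. Over all 11058 genes of at least 5 CPM in I it was 21.8%, 23.0%, 27.6% and 30.7%. In O 19 members and in S 20 members were under 5 CPM, so that the members and all genes are not matched in level there. Without I replicate 5 the values in I were 29.7% for the members and 20.1% for all genes, and without M replicate 8 those in M were 40.4% and 26.2%.

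The choice of scaling decided which genes qualified. The 525 genes with an M median at least 100 times those of O and S summed to 398201 to 796205 CPM per muscle library. The TMM factors were 0.523 to 0.747 in M but 1.01 to 1.29 in the fats. CPM are divided by these factors as well as by library size, so such sums are not shares of the reads. Over 13626 genes, the median log2 ratio of M to the mean of O and S was -0.09 with TMM and -1.0 when CPM were scaled by library size alone. In I the corresponding medians were -0.06 and -0.22. Under library size alone, 39 of the 51 members were still at least 3 times higher in I, 33 were at least 3 times higher in M, and 26 were not above M in I. Applied anew to those values, the rule found 32 genes, of which 19 were among the 51. Over the 51 members, the median share of the muscle level retained in I (the rise in I above the other fats relative to that in M) was 98.4% under library size alone, against 48.0% with TMM. With relative log expression (RLE) factors from edgeR in place of TMM, the rule found 53 genes, of which 49 were shared.

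The share of the muscle level retained in intramuscular fat was calculated as the rise in I over the mean of O and S, in percent of the same rise in M. Among the members it ran from 11.2% to 98.9% with a median of 48.0% and quartiles of 20.1% and 65.5%. The median was 48.2% without I replicate 5, 46.0% without M replicate 8 and 42.9% without these and M replicate 4. The values spread over the whole range, with 13 members at 10 to 20%, 8 at 20 to 40%, 14 at 40 to 60%, 10 at 60 to 80% and 6 at 80% or more. The members nearest the limit had shares of 11.2%, 11.8% and 12.1%, and the genes just below it had 8.74%, 7.87% and 7.33%. At the limit of 5 CPM, the nearest members had 5.02, 5.90 and 6.64 CPM in I and the nearest genes outside had 4.69, 4.61 and 4.33. At the limit of 3-fold, the values were 3.02, 3.02 and 3.09 inside and 2.99, 2.98 and 2.92 outside.

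The 525 genes with an M median at least 100 times both other fats are called muscle-restricted here, and 153 of them reached 100 CPM in M. Their retained share had a median of 1.37% and ran from 0.333% to 9.60%. TPM2, a tropomyosin of the thin filament that the study had listed by name, had medians of 156 CPM in O, 168 in S, 1454 in I and 30476 in M. It failed both the 100-fold limit and the share limit of the rule, with a share of 4.26%. The shares of the members and of the muscle-restricted genes were separated in part by the rule itself, and no test was made between them.

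**Figure D2:**
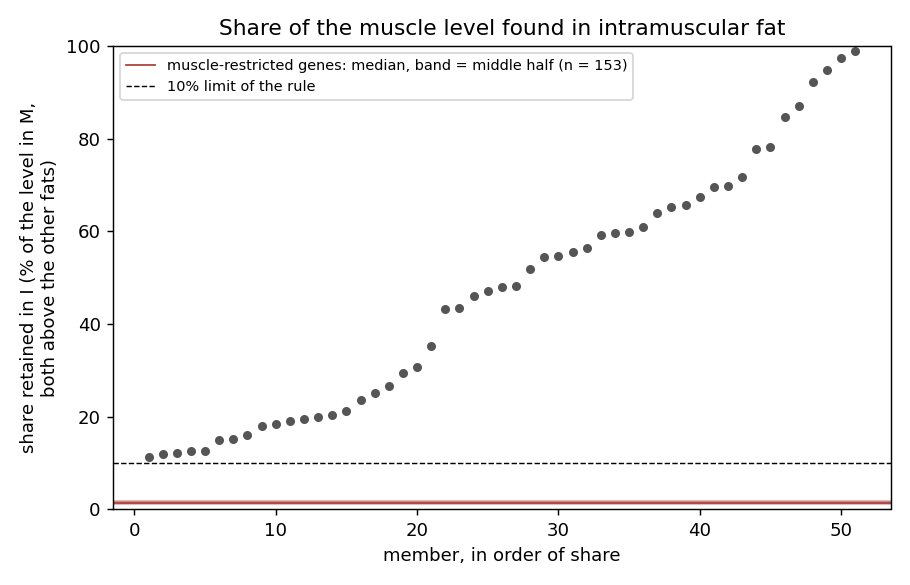
Retained share (percent of the level in M, both taken above the mean of the O and S medians) of each of the 51 members in rising order. The dashed line is the 10% limit of the rule, and the red line and narrow band are the median and the middle part (quartile 1 to quartile 3) of the 153 muscle-restricted genes, at 1.37%.

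Intramuscular fat libraries differed in how much muscle-restricted RNA they held. The summed CPM of the 525 muscle-restricted genes ran from 2466 (replicate 3) to 17661 (replicate 5) in I, against 428 to 695 in O, 360 to 637 in S and 398201 to 796205 in M. The summed CPM of the 51 members was less variable in I, from 5367 (replicate 5) to 9407 (replicate 4). It was 1222 to 2098 in O, 994 to 1682 in S and 16325 to 32438 in M.

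In each I library, the median retained share over the muscle-restricted genes was compared with that over the members. In replicates 1, 2, 3 and 4 it was 1.39%, 0.968%, 0.151% and 0.217% for the muscle-restricted genes. In replicates 5, 6, 7 and 8 it was 2.46%, 1.74%, 1.68% and 2.28%. For the members it was 45.9%, 47.8%, 33.6% and 36.3% in replicates 1 to 4, and 13.8%, 48.4%, 42.3% and 55.4% in replicates 5 to 8. Replicates 3 and 4, with the least muscle-restricted RNA, thus had lower shares for the members than every other I library except replicate 5. The library with the most, replicate 5, had the lowest share for the members.

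**Figure D3:**
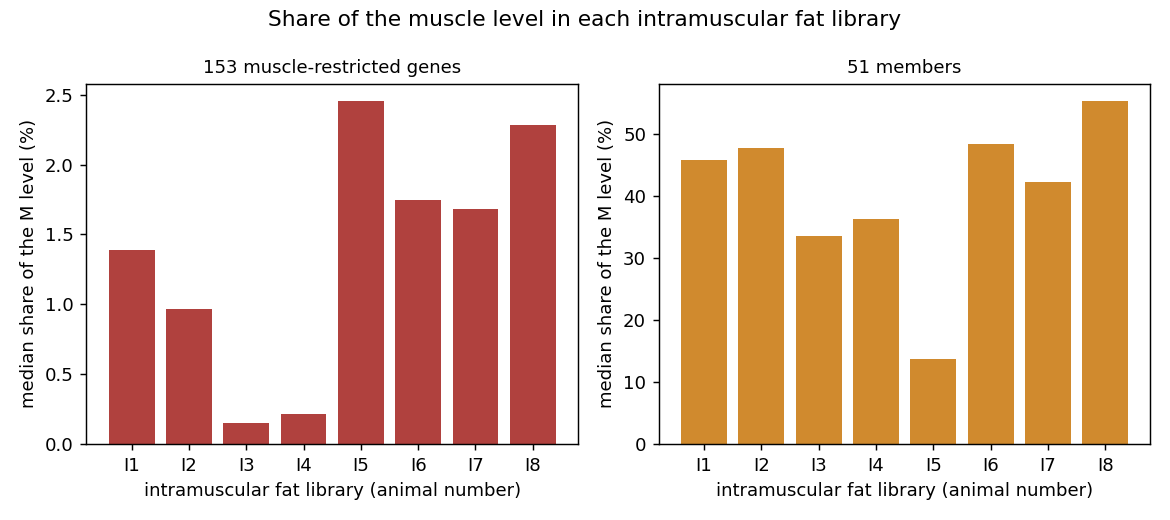
Median share of the M level (percent) in each of the 8 intramuscular fat libraries, for 153 muscle-restricted genes (left) and for the 51 members (right), on different vertical scales. Replicate 5 is the highest on the left at 2.46% and the lowest on the right at 13.8%.

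Whether single members followed the muscle signal was tested in the 8 I libraries with a slope per gene on the log2 of the summed muscle-restricted CPM (edgeR quasi-likelihood test, Benjamini-Hochberg adjustment over 13495 genes). No member and none of the genes tested was called (0% called at an adjusted p under 0.01), and the likelihood ratio test also called no member. At an unadjusted p under 0.05 there were 3 of 51 members (5.88%), against 1.74% of all genes tested. The slope, in log2 units of the gene per log2 unit of muscle signal, had a median of 0.01 over the members (range -0.47 to 0.79, with 27 of 51 positive). Over all genes the median was also 0.01. Over the 192 muscle-restricted genes that passed the count filter it was 1.19 with 182 positive, but these are among the 525 genes summed as the signal. Without I replicate 5 the median over the members was 0.16 with 38 of 51 positive, over all 13386 genes it was -0.0005 with 6671 positive, and over the muscle-restricted genes it was 1.29.

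The lowest unadjusted p belonged to ENSBTAG00000005163, with a slope of 0.79 (SE 0.26, edgeR unadjusted p = 0.0127, adjusted p = 0.9997, 8 I libraries). Its level in I ran from 13.3 (replicate 3) through a median of 28.4 to 91.5 CPM (replicate 7), and in M from 76.2 through 157 to 242. In O it was 3.03 to 13.5 CPM and in S 2.96 to 6.86. Replicate 7 stood above the other I libraries and within the range of M.

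Low values in I replicate 5 fell on some of the members. In this library 13 of the 51 members (25.5%) were at or below the mean of the O and S medians, and in every other I library 0 were. Of the 588 genes that were at least 3 times higher in I than in O and S, 9.01% were at or below that mean in replicate 5. The 13 genes had 8.28% to 24.6% of their I median there, with a median of 15.5%, whereas the other 38 members had 20.4% to 184% with a median of 71.0%. All 11058 genes of at least 5 CPM in I had a median of 101%. By a gap test on CPM within the 8 I libraries (Dixon), replicate 5 stood apart in 2 members (3.92%) and in 18.4% of all genes. With I replicate 5 standing apart over all genes and holding the most muscle-restricted RNA, the part of either in this result was not tested. The 13 genes had a median of 71.1 CPM in I and a median retained share of 46.0%, against 54.1 CPM and 53.1% for the other 38.

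The 2 members lowest in this library relative to their I median were ENSBTAG00000012718 and ENSBTAG00000018332. The first had 0.727 CPM in I replicate 5 (5 counts), against an I median of 8.78 and a highest value of 14.2 CPM. Its medians were 2.19 CPM in O, 1.51 in S and 45.4 in M, and in M it was lowest in replicate 8 at 8.27. The second had 2.47 CPM in I replicate 5 (17 counts), against an I median of 28.7, and it ranged from 3.19 to 16.1 in O, from 2.62 to 12.6 in S and from 15.5 (replicate 5) to 121 in M. In both, I replicate 5 was under the median of O and of S.

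The same 13 genes were then followed in the other libraries. Their median difference from the tissue median, in log2(CPM + 1), was -2.54 in I replicate 5, which had chosen them. In the libraries that had not, it was -1.30 in M replicate 8 and -1.03 in M replicate 5. It was -1.06 in S replicate 6, -0.88 in S replicate 7, -0.76 in O replicate 6 and -0.74 in O replicate 7. For the other 38 members the lowest values were -0.51 in M replicate 8 and -0.49 in I replicate 5. M replicate 8 also had the fewest counts on genes of the muscle libraries (3726376) and the lowest summed muscle-restricted CPM (398201, against a median of 575836). In M replicate 8, the 13 genes were at 39.7% of their M median (the other 38 members at 70.2%, all genes at 98.9%). In M replicate 5 they were at 49.0%, with the other members at 100% and all genes at 101%. The 13 genes were low together in the omental and subcutaneous fat of animals 6 and 7, but not in intramuscular fat of these animals (0.03 and -0.06) or in muscle of animal 6 (0.16). In muscle they were low in animal 5, the animal of the library that had chosen them, and in animal 8. Next lowest was the library labelled muscle replicate 4 at -0.50, against -0.06 for the other 38 members. In animal 5 the 13 genes were at -0.07 in O and 0.04 in S, and in animal 8 at 0.33 in O, 0.34 in S and 0.30 in I. M replicates 5 and 8 also had the widest spread of the muscle libraries over all genes (0.523 and 0.732). The same held for replicates 6 and 7 of O (0.371 and 0.452) and of S (0.456 and 0.472) within their tissues. The part of this in the low values was not tested.

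**Figure D4:**
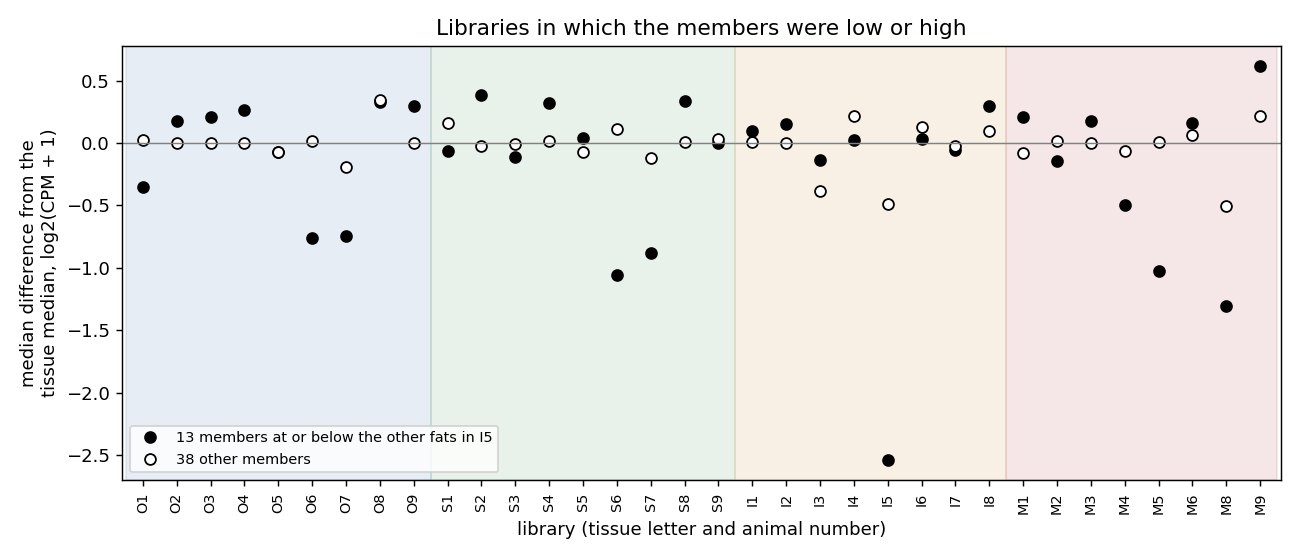
Median difference from the tissue median, in log2(CPM + 1), of the 13 members that were at or below the other fats in I replicate 5 (filled) and of the other 38 members (open), in each of the 34 libraries. I5, at -2.54, chose the filled genes, and among the other libraries filled points are lowest in M8 (-1.30), S6 (-1.06) and M5 (-1.03), while open points reach -0.51 at the lowest.

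Levels of a gene in different tissues of the same animals were compared by Pearson's r of log2(CPM + 1) over animals, given as a description. Between O and S of 9 animals, the median r over the members was 0.51, with 49 of 51 positive, and over all genes it was also 0.51. For the 13 genes it was 0.74, but between I and M it was 0.30, -0.22 without animal 5, whose I library had chosen them, and 0.69 without animal 8. Between I and O it was 0.15 for the 13 genes and 0.19 for all members, against 0.21 for all genes. Without animal 5 these values were 0.25, 0.23 and 0.31. Between I and S it was -0.06 for the 13 genes and 0.01 for all members, against 0.08 for all genes. Leaving out animal 5 changed these 3 values to 0.32, 0.09 and 0.25. Between M and O the values for the 13 genes and all members were -0.13 and -0.02, against 0.15 for all genes. Between M and S they were -0.10 and -0.05, against 0.08. Between I and M of 7 animals the median over the members was 0.13 against 0.30 for all genes, and 1 of these pairs holds the library labelled muscle replicate 4, whose counts went against its label. Without animal 4 it was 0.16 against 0.35, without animal 5 -0.05 against 0.23 and without animal 8 0.43 against 0.36. The order of the members and all genes between I and M thus depended on animal 8. The few animals limit the precision of each r.

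The rule compared O and S with I and M but not with each other. The difference between O and S was tested over all genes (edgeR quasi-likelihood test, 9 O and 9 S libraries, adjusted p under 0.01). This test did not pair the O and S libraries of an animal, although the same animals gave both. The members were nevertheless chosen with O and S values in the fold, 100-fold and share limits, and 2 of them met the 100-fold limit in only 1 of O and S. Of the 51 members, 45 passed the count filter and 6 did not. In this comparison 3.32% of 12966 genes were called, 259 higher and 171 lower in O. Of the members tested, 3 (6.67%) were called, all higher in O, and none of them was among those 2. The fitted log2 fold change was above 0 in 31 members and below 0 in 14, with a median of 0.23 against -0.01 over all genes.

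ENSBTAG00000012307 ranged in O from 6.98 through a median of 16.1 to 26.9 CPM and in S from 2.23 through 4.32 to 8.79. Its means were 16.9 ± 6.98 CPM in O and 4.72 ± 2.05 in S (SD, n = 9 each), and it was higher in O in 9 of 9 animals although the ranges of the tissues overlapped. The log2 fold change was 1.85 (SE 0.28, edgeR adjusted p = 0.00027). Its medians of 72.5 CPM in I and 427 in M lay well above both.

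ENSBTAG00000008921 had 84.0 ± 27.5 CPM in O (50.8 to 139, median 75.9) and 35.7 ± 16.7 in S (18.9 to 70.0, median 31.9, SD, n = 9 each). It was higher in O in 9 of 9 animals, with a log2 fold change of 1.23 (SE 0.25, edgeR adjusted p = 0.0032). The call was lost without the animal of replicate 1 (edgeR adjusted p = 0.0112) and without that of replicate 6 (0.0117). In I it ranged from 109 (replicate 5) to 633 CPM.

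ENSBTAG00000010555 was low in both fats, with 2.69 ± 0.861 CPM in O and 1.28 ± 0.422 in S (SD, n = 9 each), corresponding to 5 to 27 counts per library. It was higher in O in 8 of 9 animals, with a log2 fold change of 1.06 (SE 0.24, edgeR adjusted p = 0.0076). Pairing the tissues of each animal gave an edgeR adjusted p of 0.0213, and the call was also lost without any one of replicates 1, 2, 4, 6, 7 and 9. In I this gene ranged from 8.89 through a median of 37.3 to 43.5 CPM.

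The labels of females, castrated males and males were compared within each tissue (edgeR quasi-likelihood test over the 3 labels, adjusted p under 0.01). No member was called in any tissue, with 51 tested in I, 51 in M, 46 in O and 45 in S. Over all genes, 0.0146% were called in I, 0.00828% in M, 0.0372% in O and 0.0377% in S. At an unadjusted p under 0.05, 3 members passed in I (5.88%, against 4.08% of all genes), 2 in O (4.35% against 3.88%) and 5 in S (11.1% against 7.76%). These shares were near those of all genes. DESeq2 and the likelihood ratio test called no member in I, O or S.

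In muscle, 17 of 51 members (33.3%) had an unadjusted p under 0.05, against 10.8% of all genes. The rule had used the levels in these same libraries. The members also varied more in M than all genes (median coefficient of variation 45.8% against 30.7%). Nothing is therefore read from the difference between these shares, here or in the fits below. Of the 17, 14 were higher and 3 lower in males than in castrated males by the fitted fold change. The edgeR adjusted p of the 17 ran from 0.0361 to 0.455. Among the 3, ENSBTAG00000036061 had 0.960 to 8.09 CPM in male muscle, against 5.83 to 17.3 in the other muscle libraries. Its I median was 5.90 CPM, and the rule needed an M median at least as high. Every male library was above every other muscle library in 2 of the 51 members (3.92%, against 4.73% of all genes) and below in 2 (3.92%, against 1.97%). M replicates 5 and 8, with the widest spread over all genes, are 2 of the 3 libraries of castrated males. Without M replicate 8, 13 members (25.5%) had an unadjusted p under 0.05, against 8.37% of all genes, and without M replicate 5 13 members again, against 11.8%. Without the library labelled female replicate 4, whose counts went against its label, 15 members (29.4%) passed against 8.12% of all genes. Without replicates 4 and 8, 12 members (23.5%) passed against 6.16%, and in each of these fits 0 were called.

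The member with the lowest p was ENSBTAG00000013860. In muscle labelled male it had 48.0, 64.6 and 67.3 CPM, in castrated males 228, 299 and 450, and in the 2 libraries labelled female 345 and 525. The highest value, 525, was that of the library labelled female replicate 4, whose counts went against its label. As labelled, the males did not overlap with the others, which would not hold if that library came from a male. The males lay within the range of O (31.7 to 96.9 CPM) and S (43.9 to 128 CPM). This gene thus met the muscle limits of the rule only through the castrated male and female libraries. Its label tests are of a gene chosen with those libraries high, and no support for a difference is drawn from them. The edgeR adjusted p was 0.0361, above the threshold, 0.0777 without the library labelled female replicate 4, 0.0631 without M replicate 5, 0.0171 without M replicate 8 and 0.0449 without replicates 4 and 8. Without M replicates 5 and 8, which leaves 1 castrated male assumed to vary like the other groups, this member was called (edgeR adjusted p = 0.00116), against 0.181% of all genes. DESeq2 (adjusted p = 2.8e-11), the likelihood ratio test (5.0e-10) and the quasi-likelihood test with no count filter (2.3e-05) called this member. In I the same gene had 206 and 216 CPM in the 2 males, between 270 and 312 in castrated males and between 138 and 396 in females. The males were thus below the castrated males there too, while the females overlapped with both. Whether the difference between labels itself differed between I and M was not tested.

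**Figure D5:**
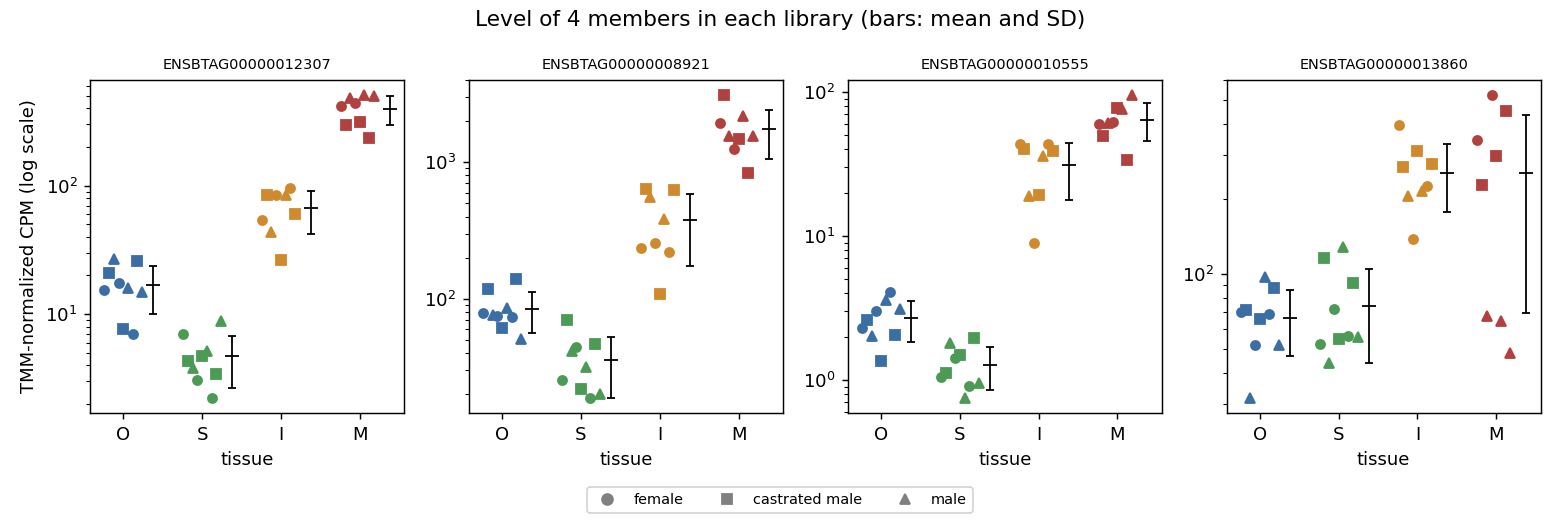
TMM-normalized CPM (log scale) in each library of O, S, I and M for the 3 members called between O and S and for ENSBTAG00000013860, with the label of the animal as the symbol and the mean ± SD beside each tissue. In the right panel the 3 male muscle libraries lie between 48.0 and 67.3 CPM, below the other 5.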

How the data were processed

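Gene counts of 34 libraries were analysed as deposited by the authors, who per their methods and the submitters' processing notes checked reads with FastQC, aligned them with TopHat2 (2.0.2) to the bosTau6 genome and counted them with HTSeq (0.5.3p3). The strand setting and the annotation version are not given in the sources used here. The 5 rows naming no gene, 63.3% to 71.1% of counts, were left out. CPM were calculated with TMM in edgeR (4.0.16, limma 3.58.1, R 4.3.3), and tests used the quasi-likelihood fit after filtering on expression (minimum count of 10), with an adjusted p under 0.01. DESeq2 (1.42.0) was an alternative, beside a likelihood ratio test, other scaling, no filter, other limits of the rule, an animal block and leaving out each animal. The fits were tested on simulated data. Within a tissue, a p-value measures the spread between these animals. The p-values of the main O against S test treat the 2 libraries of an animal as independent.

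Members and gene lists were chosen with earlier results of these data known. The genes to be named and all fixed lists (muscle fibre genes, pathways, cell type markers) needed symbols. As none of the 24596 identifiers matched the reference table (ARS-UCD2.0), the lists were not run, tissue labels were not checked against markers, and the identifiers printed were chosen after their values were seen. The limit "under 100 times O or S" was read as either tissue. Titles give the animal number: O and S libraries of the same animal deviated together (lowest r 0.254, median 0.412), those of different animals did not (median -0.039). No pair of libraries of a tissue agreed within sampling noise (lowest chi-square per degree of freedom 12.0 over 128 pairs). Intramuscular fat of animal 9 and muscle of animal 7 were not analysed here.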

Additional observations from a re-analysis of the deposited data

Results flagged for a closer look

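In 46 groups of 4 to 10 values from the members named in the text, a single library lay far from the others in 2, by a test that chance alone passes in about 1 in 20 groups. ENSBTAG00000005163 had 91.5 CPM in I replicate 7, above the other intramuscular fat libraries. ENSBTAG00000005353 had 210 CPM in S replicate 1, against a median of 45.3 CPM in subcutaneous fat.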

How the results depend on the processing

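The number of members was 51 and changed most with the scaling and the limits. It was 32 with CPM scaled by library size alone, where the median retained share of the 51 was 98.4%, 78 at 1 CPM in I, 140 at 2-fold and 16 at 5-fold. It lay between 48 and 56 when each animal was left out, with 43 to 48 of the members shared. Without I replicate 5, M replicate 4 and M replicate 8 together, an alternative added after seeing the data, it was 52, of which 44 were shared. With the 100-fold limit read as both O and S it was 49. The count of 13 members at or below the other fats in I replicate 5 was also 13 with RLE factors and with no scaling beyond library size. Members called between O and S numbered 3, and 1 to 3 when each animal was left out, the lowest without replicate 6. With the replicate block, in which O and S of each animal are paired, the count was 3 and included ENSBTAG00000012307 and ENSBTAG00000008921, but ENSBTAG00000010555 lost its call, also with no count filter (edgeR adjusted p = 0.0122). Members called between the labels in muscle numbered 0, and 1 with the likelihood ratio test, DESeq2, no count filter or an adjusted p under 0.05. In each it was ENSBTAG00000013860, which met the muscle limits of the rule only through the castrated male and female libraries. The cause of these changes was not tested. The covariate from a fixed list of muscle fibre genes was not run, as it needed symbols. The lowest count of a member was 5 in an I library, 3 in an M library and 0 in an O or S library, so depth limits the weakest members.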
